A study of Mus musculus with 4 samples.

Results

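Solute carriers (SLC proteins) move amino acids, sugars, nucleosides, vitamins, metals and ions across the plasma membrane, the lysosome, the Golgi and the inner mitochondrial membrane. The genes examined here were the protein-coding genes of the count table whose mouse symbol starts with Slc and a digit, and which reached 50 counts or more in 2 or more of the 4 libraries. Slc2a1, Slc4a1, Slc11a1 and Slc40a1 were left out by the same rule. Of 371 protein-coding genes with such a symbol, 4 were left out in this way, 186 of the remaining 367 fell below the limit (76 of them with no count in any library), and 181 genes of 41 SLC families remained, out of 41214 genes in the table. Just below the limit lay Slc25a47, Slc6a13 and Slc7a3, with second highest counts of 33, 34 and 46, and just above it Slc46a1, Slc25a35 and Slc29a2, with 55, 57 and 64. The 4 genes Slc7a8, Slc22a17, Slc23a1 and Slc46a1 passed only through the MIZ-1ΔPOZ libraries, and none passed only through MIZ-1WT.

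The RNA-seq libraries came from unstimulated splenic B220+ cells of mice on a C57BL/6 background, with 2 libraries from MIZ-1WT animals (genotype WT) and 2 from MIZ-1ΔPOZ animals (genotype Miz-1 deltaPOZ). MIZ-1 (ZBTB17) is a zinc finger transcription factor that binds MYC, and in MIZ-1ΔPOZ its POZ domain is deleted by MB1-Cre, which is active in B cells, so that a truncated protein can still be made. The methods give one young adult age range for all animals and do not say whether the MIZ-1WT animals carried Cre. Cd79a, the gene whose locus drives MB1-Cre, had 14668 and 13089 counts in MIZ-1WT and 4891 and 5939 in MIZ-1ΔPOZ (log2 fold change -1.44, adjusted p of 0.00157 by edgeR). Cells were taken after lysis of red cells and magnetic selection on B220, with no further sort, and the libraries of a genotype are described as a biological duplicate, without saying whether they came from separate mice. The p-values below measure the spread between these libraries.

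The 4 libraries held 43026814 to 46387209 counts on genes, and the 14554 genes that reached 10 counts in 2 or more of them entered the test. Zbtb17 counted over all its exons, including those outside the deleted domain, had 2087 and 1946 counts in MIZ-1WT and 1774 and 1669 in MIZ-1ΔPOZ. Both MIZ-1ΔPOZ libraries had high Xist counts (38145 and 40838, against 49 and 60 in MIZ-1WT) and 4 of 4 Y-linked genes were lower there, so sex and genotype cannot be told apart in any result below. The Y-linked genes were not absent from MIZ-1ΔPOZ. Ddx3y, for example, had 680 and 622 counts there, against 15840 and 14896 in MIZ-1WT. The source of these counts was not tested. Marker levels of other cell types and states also moved with genotype. All 16 macrophage markers tested were higher in MIZ-1ΔPOZ, with none at 0 and a median log2 fold change of 1.98, and their summed level was 896 and 1180 CPM (counts scaled to the size of each library) in MIZ-1WT against 5088 and 3196 CPM in MIZ-1ΔPOZ. All 8 cycling cell markers (228 and 226 against 967 and 837 CPM), all 6 marginal zone markers (2604 and 2592 against 3208 and 3444 CPM) and 5 of 6 plasma cell markers (734 and 1059 against 2477 and 2311 CPM) were higher, while 4 of 6 follicular markers (2046 and 2180 against 1672 and 1797 CPM) and 7 of 9 B cell markers (13156 and 13487 against 11028 and 11408 CPM) were lower. In bulk RNA, fewer cells of a type and less RNA per cell cannot be told apart, and the part of these shifts in the transporter results was not tested.

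The deletion of the POZ domain was compared with MIZ-1WT for every gene, and the transporters called at an adjusted p under 0.05 by edgeR's quasi-likelihood test were counted. Of the 181 genes, 61 (33.7%) were higher and 27 (14.9%) lower in MIZ-1ΔPOZ, and 93 were not called. Over all tested genes, 21.1% were higher and 18.9% lower. Over the 10956 protein-coding genes past the same 50-count limit, 22.8% were higher and 22.2% lower, so the transporters held more rises and fewer falls than that background. The median log2 fold change was 0.08 for the transporters, with quartiles of -0.14 and 0.46, against -0.02 for that background and -0.01 for all tested genes. A rise of over 2-fold was called for 22 transporters (8.79% of the background had one) and a fall of over 2-fold for 2 (0.867% of the background). Of the genes that passed the count limit only through MIZ-1ΔPOZ, and so had to be higher, all 4 are among the 61 rises and 3 (Slc7a8, Slc22a17 and Slc46a1) among the 22. The values of the 2 genotypes did not overlap, with MIZ-1ΔPOZ higher, for 90 transporters (37.5% of the background) and with MIZ-1ΔPOZ lower for 58 (40.9% of the background). The summed level of all 181 genes was nearly level, at 8124 and 7951 CPM in MIZ-1WT and 7947 and 7943 CPM in MIZ-1ΔPOZ.

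The counts of calls rested on both MIZ-1WT libraries. The signs of the calls were no test of this. The genotypes of the called genes did not overlap, so leaving out 1 library leaves their signs in place. Without MIZ-1WT replicate 1, 32 transporters were higher and 13 lower, and without MIZ-1WT replicate 2, 33 were higher and 14 lower. Without MIZ-1ΔPOZ replicate 1, the library with the highest macrophage marker level, 55 were higher and 22 lower, and without MIZ-1ΔPOZ replicate 2, 61 and 25. Calls over all tested genes fell in the same fits, from 3076 higher and 2746 lower to 1374 and 848 without MIZ-1WT replicate 1 and to 1728 and 1115 without MIZ-1WT replicate 2. All 88 calls kept their sign in each of these 4 fits, and 27 rises and 12 falls were called in all 4. Of the 22 rises over 2-fold, 17 were called in all 4.

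Rises and falls sat at different levels of expression, among the transporters as in the background. The background genes were divided into 4 bins of equal size by mean CPM over the 4 libraries, with limits at 11.66, 34.01 and 83.68 CPM. In the lowest bin, 38.3% of 47 transporters were higher, near the 36.2% of the background. In the second and the third bin, 38.8% of 67 and 32.6% of 43 transporters were higher, against 23.7% and 17.9% of the background. In the highest bin falls outnumbered rises in both groups, with 12.5% of 24 transporters higher and 50% lower, against 13.5% and 39.2% of the background.

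**Figure D1:**
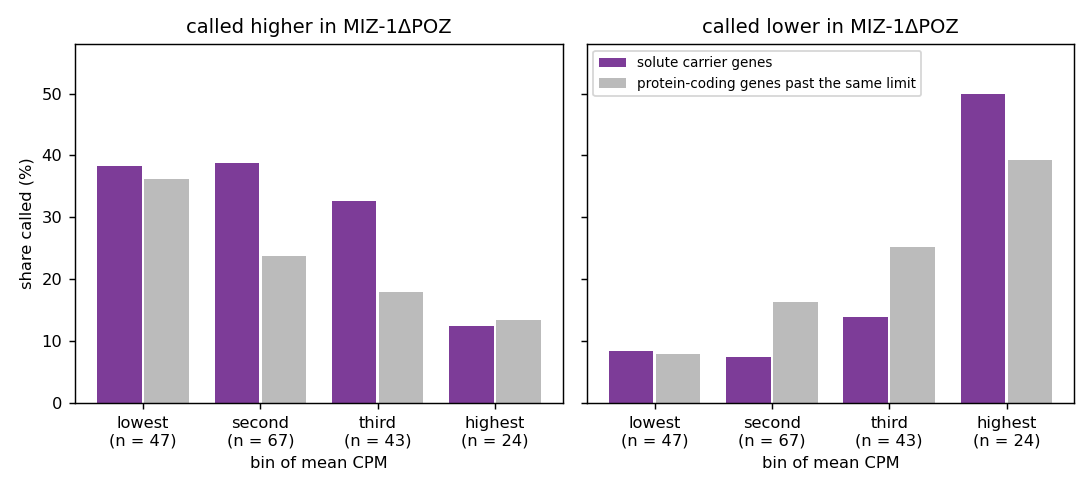
Share of solute carrier genes (purple) and of all protein-coding genes past the same count limit (grey) called higher (left) or lower (right) in MIZ-1ΔPOZ, in percent, by bin of mean CPM, with the number of solute carrier genes under each bar pair. The purple bars stand above the grey ones for rises in the second and the third bin (38.8% against 23.7% and 32.6% against 17.9%). In the highest bin 50% of the transporters and 39.2% of the background were lower.

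By substrate class, calls are read beside the 22.8% higher and 22.2% lower of the background, and several classes lay near it. Amino acid and peptide carriers had 12 of 25 higher (48%) and 6 lower (24%), with a median log2 fold change of 0.21. The 12 include Slc7a8, which passed only through MIZ-1ΔPOZ and so had to be higher. Carriers of metals had 10 of 25 higher (40%) and 3 lower (12%, median 0.14), and carriers of inorganic ions and pH 8 of 22 (36.4%) and 6 (27.3%, median 0.08). Carriers of lipids and organic ions had 6 of 14 higher (42.9%, with Slc22a17, which passed only through MIZ-1ΔPOZ) and 3 lower (21.4%, median 0.17). Mitochondrial carriers had 10 of 38 higher (26.3%) and 3 lower (7.89%, median 0.01), and nucleotide sugar carriers 4 of 21 (19%) and 1 (4.76%, median 0.02). Sugar and monocarboxylate carriers had 5 of 17 higher (29.4%) and 4 lower (23.5%, median 0.05), vitamin and choline carriers 4 of 10 (40%, with Slc23a1 and Slc46a1, which passed only through MIZ-1ΔPOZ) and 1 (10%, median -0.02), and nucleoside and nucleobase carriers 2 of 6 (33.3%) and 0 (median 0.47). The remaining 3 symbols name proteins that are not transporters, namely Slc9a3r1 (the scaffold NHERF1), Slc4a1ap (kanadaptin) and Slc7a6os, and none of them was called (log2 fold changes of -0.09, -0.12 and -0.13).

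**Figure D2:**
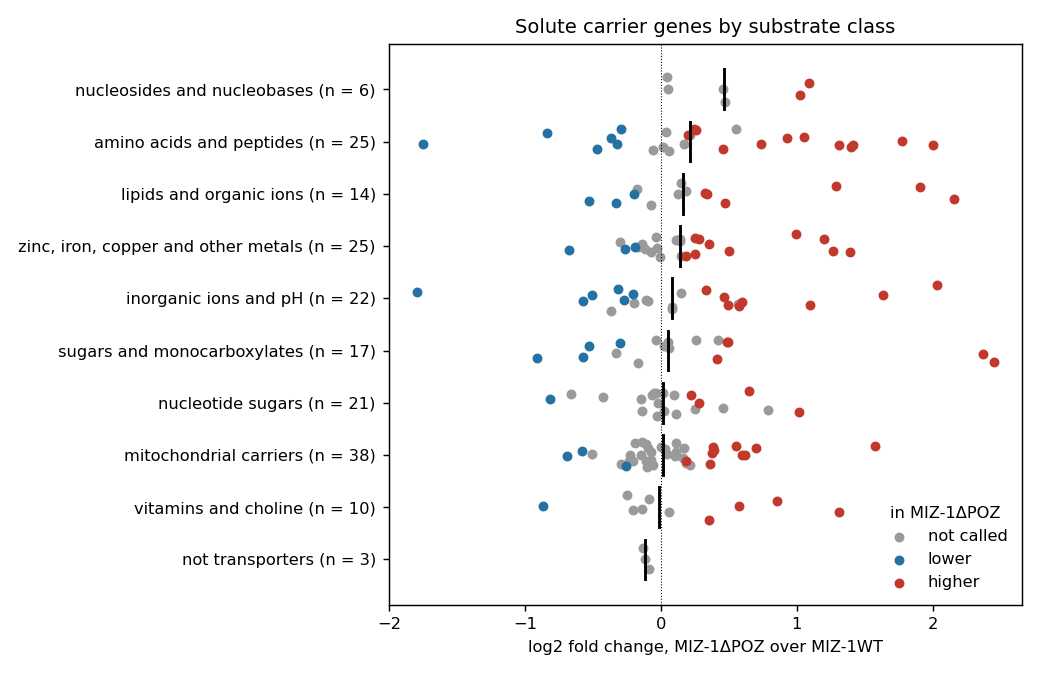
Log2 fold change (MIZ-1ΔPOZ over MIZ-1WT) of each of the 181 genes by substrate class, coloured by whether the gene was called higher (red), lower (blue) or not called (grey); black bars are class medians and the vertical spread within a class is only for display. The largest rises lie among sugar and monocarboxylate carriers (2.45 and 2.37) and the largest falls are single genes of the ion and the amino acid class (-1.79 and -1.75).

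Amino acid and peptide carriers held both rises and falls, and the falls came from the Slc1, Slc15 and Slc38 families. Slc1a5 (ASCT2, a plasma membrane exchanger of glutamine and other neutral amino acids, chr7:16781340-16798274, mm10) had 276 and 264 CPM in MIZ-1WT and 152 and 150.4 CPM in MIZ-1ΔPOZ. The replicates of each genotype lay close together and the gap between genotypes was wide, with a log2 fold change of -0.84 ± 0.05 (SE, n = 2 libraries a genotype, as for every fold change below) and an adjusted p of 0.000739 by edgeR. Per kilobase of exon, its level was 64.6 CPM in MIZ-1WT and 36.2 CPM in MIZ-1ΔPOZ, which placed it in MIZ-1WT beside Slc50a1 (65.04 CPM per kilobase), below the adenine nucleotide carrier Slc25a5 (139.1). The sodium-coupled neutral amino acid carriers Slc38a1 (156 and 162 against 114 and 141 CPM, log2 fold change -0.32 ± 0.10, adjusted p of 0.04997 by edgeR) and Slc38a2 (193 and 191 against 150.4 and 163 CPM, -0.30 ± 0.05) also fell, by less. In the Slc38 family 3 of 6 genes were lower and none was higher, against 22.2% lower and 22.8% higher in the background. Slc38a1 and Slc38a2 lay in the highest bin of mean CPM, where 39.2% of the background was lower. The calls of Slc38a1 and Slc38a2 were lost without either MIZ-1WT library, with an adjusted p of up to 0.187 and 0.0780 by edgeR, and that of Slc38a1 also with library totals alone (0.0783) and with a mean of at least 50 counts (0.0626).

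In the Slc7 family, 4 of 6 genes were higher and none lower, but 1 of the 4, Slc7a8, passed the count limit only through MIZ-1ΔPOZ and so had to be higher. Over the background 22.8% were higher. Slc7a2 and Slc7a8 lay in the lowest bin of mean CPM, where 36.2% of the background was higher. Slc7a5 and Slc7a7 lay in the second (23.7%). Slc7a5 (LAT1, the exchanger of leucine and other large neutral amino acids) had 12.8 and 10.99 CPM in MIZ-1WT and 21.9 and 23.5 CPM in MIZ-1ΔPOZ, a log2 fold change of 0.93 ± 0.10 with an adjusted p of 0.00238 by edgeR. Slc3a2 (CD98 heavy chain, the subunit with which Slc7a5, Slc7a6 and Slc7a7 reach the membrane) was at a higher level with a smaller difference, 54.4 and 52.3 against 64.3 and 63.5 CPM (0.26 ± 0.05), and its call was lost without either MIZ-1WT library (adjusted p of up to 0.0951 by edgeR). Slc7a7, a light chain for cationic and neutral amino acids, had 8.07 and 6.400 CPM in MIZ-1WT and 21.6 and 17.02 CPM in MIZ-1ΔPOZ (1.41 ± 0.16). Slc7a2, which carries arginine and lysine, went from 2.84 and 2.83 to 12.96 and 9.73 CPM (2.00 ± 0.18). All 3 light chains and carriers lay above MIZ-1WT in both MIZ-1ΔPOZ libraries. The arginine carrier Slc7a1 (43.99 and 43.3 against 43.1 and 58.1 CPM) and the light chain Slc7a6 (33.7 and 30.8 against 29.2 and 32.8 CPM) had overlapping genotypes and were not called, although Slc7a1 was called without MIZ-1ΔPOZ replicate 1 (adjusted p of 0.00516 by edgeR).

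Of the Slc1 family, whose Slc1a5 fell, the other 2 genes present rose. Slc1a3 (a glutamate and aspartate carrier) had 6.17 and 7.07 CPM in MIZ-1WT and 26.4 and 18.8 CPM in MIZ-1ΔPOZ (1.78 ± 0.18), and Slc1a4 (a carrier of serine, alanine and cysteine) had 1.49 and 1.93 CPM against 4.29 and 4.74 CPM (1.40 ± 0.20). Both stayed called whichever library was left out. Slc1a3 was higher in MIZ-1ΔPOZ replicate 1 than in replicate 2, and Slc1a4 was not.

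Of the 3 peptide carriers of the Slc15 family, 2 were lower. Slc15a2 (PEPT2, a proton-coupled carrier of di- and tripeptides at the plasma membrane, chr16:36750177-36784962, mm10) had 112 and 69.5 CPM in MIZ-1WT and 24.3 and 29.7 CPM in MIZ-1ΔPOZ. The 2 MIZ-1WT libraries differed from each other, yet both lay far above MIZ-1ΔPOZ, with a log2 fold change of -1.75 ± 0.23 and an adjusted p of 0.00384 by edgeR. Leaving out a library moved the estimate between -2.05 and -1.37. Slc15a4, an endolysosomal carrier of histidine and peptides that Toll-like receptor signalling in B cells uses, had 292 and 283 against 204 and 209.98 CPM (-0.47 ± 0.05, adjusted p of 0.00178 by edgeR). Slc15a3, its endolysosomal relative, had 15.8 and 12.5 against 24.2 and 17.4 CPM and a log2 fold change of 0.56 ± 0.19 that missed the threshold (adjusted p of 0.0614 by edgeR), but was called without MIZ-1ΔPOZ replicate 2 (0.00402).

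The largest rises of all were in the sugar and monocarboxylate class. Slc16a9 (MCT9, a carrier of carnitine and creatine, chr10:70245100-70285968, mm10) had 6.24 and 7.52 CPM in MIZ-1WT and 47.6 and 27.3 CPM in MIZ-1ΔPOZ, a log2 fold change of 2.45 ± 0.28 with an adjusted p of 0.00258 by edgeR. Slc45a3 (prostein, a member of the sugar carrier family Slc45, chr1:131962967-131982969, mm10) had 7.497 and 9.07 CPM against 54.8 and 30.8 CPM (2.37 ± 0.29). In both genes MIZ-1ΔPOZ replicate 1 lay well above replicate 2. Slc16a1 (MCT1, the lactate and pyruvate carrier) rose from 28.6 and 26.96 to 41.7 and 36.4 CPM (0.49 ± 0.09) and lost its call without MIZ-1WT replicate 2 (adjusted p of 0.0580 by edgeR).

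Falls in the same class were found for carriers of inositol, sugar phosphates and ketone bodies. Slc5a3 (the sodium-coupled myo-inositol carrier) fell from 37.6 and 30.2 to 18.7 and 17.3 CPM (-0.91 ± 0.12). Slc37a2, a sugar phosphate exchanger, had 166 and 143 against 109 and 98.2 CPM (-0.57 ± 0.09), and Slc16a6 (MCT7, an exporter of ketone bodies) had 69.5 and 57.2 against 44.5 and 43.5 CPM (-0.53 ± 0.10). These 3 stayed called whichever library was left out. The glucose carrier Slc2a3 (GLUT3), at 83.1 and 73.7 CPM in MIZ-1WT and 79.2 and 84.3 CPM in MIZ-1ΔPOZ, had overlapping genotypes, and its relative Slc2a6 (11.8 and 13.4 against 11.2 and 11.1 CPM) was not called (adjusted p of 0.227 by edgeR).

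**Figure D3:**
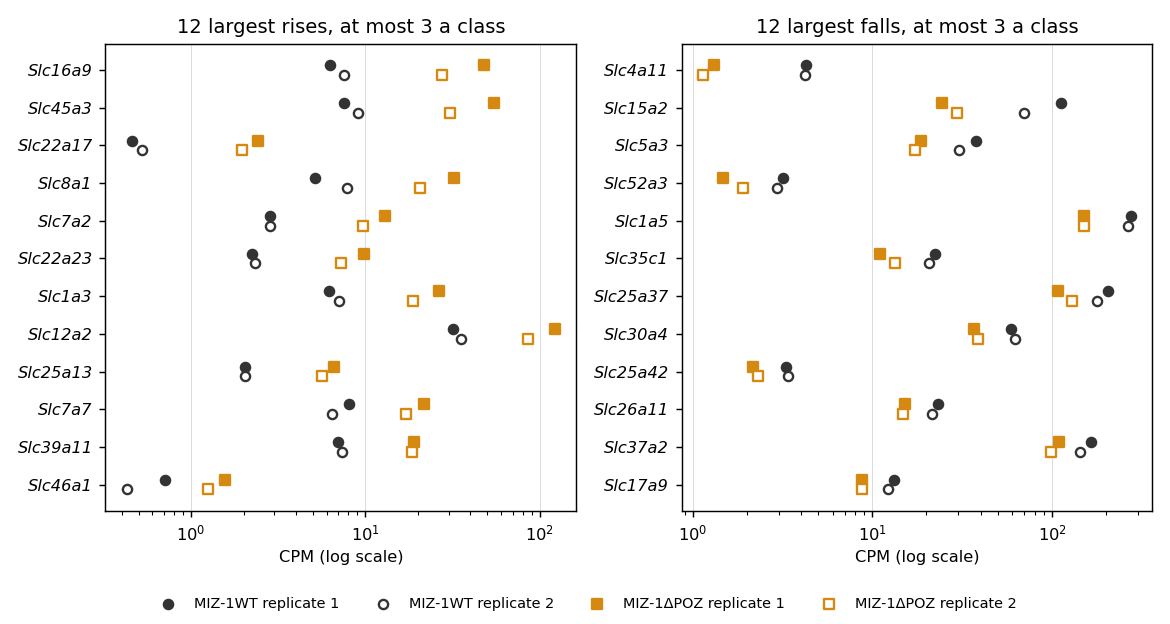
CPM in each of the 4 libraries, on a log axis, for the 12 largest called rises (left) and the 12 largest called falls (right) with at most 3 genes taken from a substrate class; circles are MIZ-1WT, squares MIZ-1ΔPOZ, filled symbols replicate 1 and open symbols replicate 2. Genes were taken only where the genotypes did not overlap. Replicates 1 and 2 of MIZ-1ΔPOZ stand apart for Slc16a9 (47.6 and 27.3 CPM) but not for Slc39a11 (19.1 and 18.5 CPM).

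Among ion carriers, the 3 rises over 2-fold were in Slc8a1, Slc12a2 and Slc9a9, and the fall over 2-fold was in Slc4a11. Slc12a2 (NKCC1, which brings sodium, potassium and chloride into the cell) had 31.7 and 35.2 CPM in MIZ-1WT and 122 and 85.1 CPM in MIZ-1ΔPOZ (1.63 ± 0.17). Both MIZ-1ΔPOZ libraries lay far above MIZ-1WT. Slc8a1 (NCX1, the plasma membrane sodium and calcium exchanger) went from 5.14 and 7.804 to 32.04 and 20.7 CPM (2.03 ± 0.27), and Slc9a9 (an endosomal sodium and proton exchanger) from 14.5 and 13.97 to 33.6 and 27.2 CPM (1.10 ± 0.12). The largest fall of all 181 genes was that of Slc4a11 (a member of the bicarbonate carrier family, chr2:130684113-130697519, mm10). It had 4.29 and 4.19 CPM in MIZ-1WT and 1.303 and 1.14 CPM in MIZ-1ΔPOZ (-1.79 ± 0.18, adjusted p of 0.00191 by edgeR). Slc26a11, a sulfate and chloride carrier, fell from 23.2 and 21.6 to 15.3 and 14.8 CPM (-0.57 ± 0.08). The sodium bicarbonate carrier Slc4a7 fell less, from 224 and 226 to 184 and 189.8 CPM (-0.27 ± 0.04), and was not called without either MIZ-1WT library (adjusted p of up to 0.0614 by edgeR). The phosphate carrier Slc20a1 was not called, with a log2 fold change of 0.15 ± 0.05, but passed the threshold without MIZ-1ΔPOZ replicate 2 (adjusted p of 0.0271 by edgeR).

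For metals, calls of zinc importers and zinc exporters are given by family, with no test between the families. Over the background, 22.8% of genes were higher and 22.2% lower. The Slc39 family brings zinc into the cytosol, and 6 of its 12 genes were higher, none lower and 6 not called. Among these 6 rises, the calls of Slc39a1 and Slc39a8 did not hold in every fit that left out a library. The Slc30 family moves zinc out of the cytosol, and 3 of its 6 genes were lower, 1 higher and 2 not called. Among the importers, Slc39a11 had 6.97 and 7.35 CPM in MIZ-1WT and 19.1 and 18.5 CPM in MIZ-1ΔPOZ (1.39 ± 0.09, adjusted p of 0.000784 by edgeR) and Slc39a4 had 1.79 and 1.43 CPM against 3.59 and 4.15 CPM (1.26 ± 0.20). Slc39a6 rose from 25.7 and 24.9 to 31.7 and 32.9 CPM (0.35 ± 0.06), and Slc39a10, which B cells need for survival, had 47.02 and 46.3 against 42.5 and 43.5 CPM and was not called (adjusted p of 0.132 by edgeR). Among the exporters, Slc30a4 had 58.96 and 62.1 CPM in MIZ-1WT and 36.9 and 38.8 CPM in MIZ-1ΔPOZ (-0.68 ± 0.06), well apart. Slc30a9 (-0.27 ± 0.05) and Slc30a5 (231 and 233 against 209 and 197 CPM, -0.19 ± 0.05) fell by less. Without either MIZ-1WT library the calls of Slc39a6, Slc30a9 and Slc30a5 were lost, and that of Slc30a5 also without MIZ-1ΔPOZ replicate 2, with adjusted p of up to 0.0705, 0.0728 and 0.136 by edgeR. The copper importer Slc31a1 was not called (18.8 and 18.9 against 19.8 and 21.8 CPM).

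Slc48a1 (HRG1, which takes heme out of the lysosome into the cytosol and is abundant in red pulp macrophages) had 21.3 and 23.2 CPM in MIZ-1WT and 54.04 and 48.4 CPM in MIZ-1ΔPOZ (1.20 ± 0.08, adjusted p of 0.000892 by edgeR). Slc25a37 (mitoferrin 1, which brings iron into mitochondria) had 205 and 178 CPM against 108 and 129 CPM (-0.69 ± 0.11, adjusted p of 0.00566 by edgeR). Slc25a38, a mitochondrial glycine carrier used in heme synthesis, had 35.5 and 32.5 against 28.97 and 27.9 CPM (-0.26 ± 0.07) and lost its call in all 4 fits that left out a library (adjusted p of up to 0.195 by edgeR).

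Among the other mitochondrial carriers, most were not called and rises outnumbered falls. Slc25a4 and Slc25a5 (the adenine nucleotide exchangers ANT1 and ANT2 of the inner membrane) were both higher. Slc25a4 had 82.6 and 93.9 CPM in MIZ-1WT and 141 and 145 CPM in MIZ-1ΔPOZ (0.70 ± 0.07, adjusted p of 0.00191 by edgeR). Slc25a5 had 229 and 229 CPM against 301 and 299 CPM (0.39 ± 0.04). Per kilobase of exon, Slc25a5 was the highest of all 181 genes in both genotypes (139.1 and 182.3 CPM per kilobase). It is 1 of 7 of these genes on the X chromosome. Of the 7, 2 were called, Slc25a5 higher and 1 other lower, against 22.8% higher and 22.2% lower of the background. Slc25a13 (citrin, an aspartate and glutamate exchanger) had the largest rise of the class, from 2.04 and 2.05 to 6.58 and 5.61 CPM (1.58 ± 0.16), and the pyrimidine nucleotide carrier Slc25a33 rose from 3.74 and 4.04 to 5.95 and 5.99 CPM (0.62 ± 0.13). Slc25a3, the phosphate carrier, had 271 and 265 against 277 and 301 CPM and was not called (adjusted p of 0.172 by edgeR; 0.0355 without MIZ-1ΔPOZ replicate 1). The coenzyme A carrier Slc25a42 fell from 3.301 and 3.38 to 2.16 and 2.301 CPM (-0.58 ± 0.17) but lost its call in all 4 fits with a library left out, and Slc25a33 without either MIZ-1WT library, with adjusted p of up to 0.142 and 0.110 by edgeR.

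Both called nucleoside and nucleobase carriers rose by about 2-fold. Slc29a1 (ENT1, the equilibrative nucleoside carrier) had 21.5 and 19.9 CPM in MIZ-1WT and 45.03 and 39.3 CPM in MIZ-1ΔPOZ (1.03 ± 0.09, adjusted p of 0.00147 by edgeR). Slc43a3, a purine nucleobase carrier, had 6.53 and 7.88 CPM against 14.9 and 15.8 CPM (1.09 ± 0.12, adjusted p of 0.00238). The sodium-coupled nucleoside carrier Slc28a2, with 241 and 240.1 CPM against 242 and 257 CPM, was not called (0.06 ± 0.05), and neither was the lysosomal Slc29a3 (22.03 and 17.4 against 23.2 and 31.1 CPM), which passed the threshold without MIZ-1ΔPOZ replicate 1 (adjusted p of 0.00824 by edgeR).

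Carriers of nucleotide sugars (the Slc35 family) were mostly not called, at 16 of 21. Slc35c1, which brings GDP-fucose into the Golgi for fucosylation, had 22.4 and 20.6 CPM in MIZ-1WT and 11.1 and 13.4 CPM in MIZ-1ΔPOZ (-0.81 ± 0.12, adjusted p of 0.00464 by edgeR). Slc35b2, which brings in the sulfate donor PAPS, had 30.01 and 31.6 CPM against 49.1 and 47.6 CPM (0.65 ± 0.06, adjusted p of 0.00168 by edgeR). The pair moved in opposite directions, with close replicates for Slc35b2 and a wider gap between the MIZ-1ΔPOZ libraries for Slc35c1. Slc35f2 rose from 2.499 and 2.07 to 4.77 and 4.47 CPM (1.01 ± 0.17) and Slc35f6 from 19.9 and 19.6 to 25.1 and 22.8 CPM (0.28 ± 0.08). The first lost its call without MIZ-1WT replicate 2 (adjusted p of 0.0526 by edgeR) and the other without MIZ-1WT replicate 1, MIZ-1WT replicate 2 or MIZ-1ΔPOZ replicate 1 (up to 0.165). The most abundant of the class, Slc35e1, and the CMP-sialic acid carrier Slc35a1 had overlapping genotypes (-0.03 and 0.10 on the log2 scale).

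Among carriers of lipids and organic ions, the rises over 2-fold were in genes of low level. Slc22a17 (the lipocalin 2 receptor) had 0.459 and 0.523 CPM in MIZ-1WT and 2.44 and 1.96 CPM in MIZ-1ΔPOZ (2.16 ± 0.25, adjusted p of 0.00280 by edgeR), and as a gene that passed the count limit only through MIZ-1ΔPOZ it had to be higher there. Its relatives Slc22a23 (2.22 and 2.33 against 9.77 and 7.27 CPM, 1.90 ± 0.19) and Slc22a15 (1.100 and 1.55 against 3.36 and 3.099 CPM, 1.29 ± 0.23) rose as well, the second losing its call without MIZ-1WT replicate 1 (adjusted p of 0.0544 by edgeR). Slc17a9, the vesicular nucleotide carrier that loads ATP, fell from 13.2 and 12.2 to 8.78 and 8.75 CPM (-0.53 ± 0.10), and Slc27a4, a fatty acid transport protein, from 32.2 and 34.02 to 26.5 and 26.1 CPM (-0.33 ± 0.06). Slc10a7 had 45.2 and 45.04 against 39.9 and 38.6 CPM (-0.20 ± 0.06). Slc17a9 was not called without MIZ-1WT replicate 1, Slc27a4 without either MIZ-1WT library and Slc10a7 in any of the 4 such fits, with adjusted p of up to 0.0881, 0.0844 and 0.165 by edgeR.

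Vitamin and choline carriers were mixed. Slc44a1, a choline carrier, had 35.5 and 38.8 CPM in MIZ-1WT and 55.4 and 55.4 CPM in MIZ-1ΔPOZ (0.58 ± 0.06, adjusted p of 0.00249 by edgeR). The more abundant Slc44a2 had 268 and 259.7 against 230.1 and 248 CPM and was not called (adjusted p of 0.0846 by edgeR, and 0.0346 without MIZ-1ΔPOZ replicate 2). Slc52a3, a riboflavin carrier, fell from 3.16 and 2.95 to 1.47 and 1.89 CPM (-0.86 ± 0.20). The folate carrier Slc19a1 rose from 9.86 and 10.2 to 12.5 and 13.1 CPM (0.35 ± 0.09). The folate carrier Slc46a1 (0.711 and 0.428 against 1.58 and 1.25 CPM) and the ascorbate carrier Slc23a1 (0.917 and 0.857 against 1.62 and 1.59 CPM) passed the count limit only through MIZ-1ΔPOZ. Slc52a3, Slc19a1, Slc46a1 and Slc23a1 each lost their call in at least 2 of the 4 fits that left out a library, with adjusted p of up to 0.107, 0.167, 0.103 and 0.113 by edgeR.

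Several lists of transporters with a shared setting were followed as well. Of 32 transporters known for lymphocyte metabolism, 31 were present (Slc16a3 had 16 to 30 counts). Of these, 11 were higher (35.5%) and 10 lower (32.3%), with a median log2 fold change of 0.10, against 22.8% and 22.2% of the background. Of 13 endolysosomal carriers, 11 were present under the symbols used. Of these, 3 were higher (27.3%) and 2 lower (18.2%, median 0.17), which is near the background. The falls were Slc15a4 and the lysosomal sulfate carrier Slc26a11, and the rises Slc48a1, the sialic acid carrier Slc17a5 (11.6 and 11.3 against 14.5 and 14.4 CPM) and Slc46a3 (26.2 and 27.6 against 38.5 and 36.3 CPM). Slc17a5 was not called without either MIZ-1WT library (adjusted p of up to 0.138 by edgeR). The lysosomal amino acid carriers Slc38a9, Slc38a7 and Slc36a1 were not called (0.06 ± 0.05, 0.04 ± 0.08 and 0.17 ± 0.09). Of 8 transporters known as targets of ATF4, the factor of the amino acid stress response, 6 were present. Slc7a5, Slc3a2 and Slc1a4 were higher, Slc1a5 and Slc38a2 lower and Slc7a1 not called, so this list did not move one way. Its other 2 genes, Slc7a11 (13 to 38 counts) and Slc6a9 (6 to 40 counts), lay below the count limit.

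Of 27 listed transport proteins outside the Slc symbols 25 were tested, and 7 were higher (28%) and 4 lower (16%), near the 21.1% and 18.9% of all tested genes, with a median log2 fold change of 0.11. Slco2b1, an organic anion carrier, had 10.6 and 11.2 CPM in MIZ-1WT and 58.4 and 45.5 CPM in MIZ-1ΔPOZ (2.25 ± 0.13). Spns2, which exports sphingosine 1-phosphate, had 31.6 and 29.9 CPM against 9.08 and 9.59 CPM (-1.72 ± 0.08), and Sfxn1, the mitochondrial serine carrier, 38.9 and 38.5 CPM against 61.8 and 62.95 CPM (0.69 ± 0.05).

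The rises over 2-fold differed in how the 2 MIZ-1ΔPOZ libraries compared with each other. The 16 macrophage markers were higher in MIZ-1ΔPOZ replicate 1 than in replicate 2 for 15 genes, by a median of 0.64 on the log2 scale, and lower in MIZ-1WT replicate 1 than in replicate 2 for all 16, with a median log2 ratio of -0.38. Of the 22 transporters called over 2-fold higher, 12 had MIZ-1ΔPOZ replicate 1 above replicate 2 by over 0.3, and 8 of these also had MIZ-1WT replicate 1 below replicate 2. The 12 include Slc16a9 (0.80), Slc45a3 (0.83), Slc8a1 (0.63), Slc12a2 (0.52) and Slc1a3 (0.49). They also include Slc22a17 (0.315) and Slc46a1 (0.33), which passed the count limit only through MIZ-1ΔPOZ. Of the 39 rises of up to 2-fold, 1 had such a difference. A gap of this size also widens the standard error, so a small rise with one is harder to call. Slc15a3 (log2 fold change 0.56, ratio 0.475) was not called, for example. The 12 of 22 and the 1 of 39 can therefore not be compared, and the share among background genes was not counted. Slc1a4 (-0.15), Slc39a4 (-0.21), Slc43a3 (-0.08), Slc39a11 (0.04) and Slc48a1 (0.16) lay under this limit of 0.3, as did Slc7a5 (-0.10). Over all 61 rises, the median ratio of MIZ-1ΔPOZ replicate 1 over replicate 2 was 0.08. The part of the macrophage marker shift in either group of genes was not tested.

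**Figure D4:**
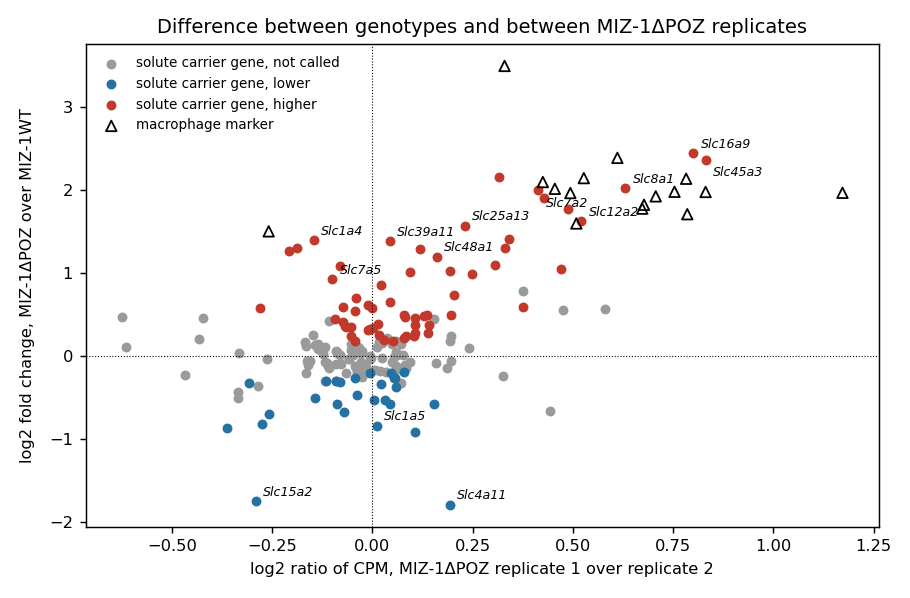
Log2 fold change between genotypes (vertical axis) against the log2 ratio of CPM of MIZ-1ΔPOZ replicate 1 over replicate 2 (horizontal axis) for the 181 solute carrier genes, coloured by call, and for the 16 macrophage markers (open triangles); both axes use the MIZ-1ΔPOZ values. Slc16a9 and Slc45a3 lie among the triangles on the right (0.80 and 0.83), while Slc1a4, Slc7a5, Slc39a11 and Slc48a1 lie further left (-0.15, -0.10, 0.04 and 0.16), as does 1 of the 16 markers.

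Promoter windows were then read for short sequence motifs, because MYC, a binding partner of MIZ-1, binds the E-box together with MAX. The paper places MIZ-1 at sites of its own that differ from those of MYC, so the E-box does not stand for MIZ-1 binding. The paper's MIZ-1 ChIP-seq of splenic B220+ cells was not used here. RefSeq promoters (GRCm38.p6, 250 bases before to 50 after a start) were found for 136 of the 181 genes. The E-box CACGTG, which reads the same on both strands, lay in the window of 24 of them (17.6%), against 12% of the 8735 protein-coding genes past the count limit with a window and 8.09% of all 27025 genes with one. It was present for 10 of 49 genes called higher, 1 of 18 called lower and 13 of 69 not called, so its share did not separate rises from genes that were not called (20.4% and 18.8%). The amino acid response core TGATGNAA, bound by ATF4, lay in 3 of 49 genes called higher, 1 of 18 called lower and none of 69 not called (2.79% of the protein-coding genes past the count limit and 4.51% of all genes), and GAGGAAGT, the core bound by the myeloid and B cell factor PU.1, in 4 of 49, none of 18 and 1 of 69 (4.04% and 3.69%), searched on both strands. A match describes letters in a window and not binding. The 250 bases before the start are printed for 5 genes on the strand of the gene, each with a match upstream, with the motif in capitals and its first base given as a distance before the start. Slc25a13 (chr6:6217174-6217423, minus strand, 125 bases before) and Slc16a1 (chr3:104638414-104638663, plus strand, 200 before) rose and hold an E-box, Slc30a5 (chr13:100833428-100833677, minus strand, 61 before) is the called fall that holds one, and Slc22a15 (chr3:101924454-101924703, minus strand, 33 before) and Slc9a9 (chr9:94669642-94669891, plus strand, 69 before) rose and hold GAGGAAGT, on the opposite strand, and TGATGNAA.
Slc25a13: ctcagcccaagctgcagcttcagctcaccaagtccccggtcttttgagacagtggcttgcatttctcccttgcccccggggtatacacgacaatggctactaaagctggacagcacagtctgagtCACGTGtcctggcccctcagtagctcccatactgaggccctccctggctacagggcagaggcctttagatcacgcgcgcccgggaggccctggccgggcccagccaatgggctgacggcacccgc
Slc16a1: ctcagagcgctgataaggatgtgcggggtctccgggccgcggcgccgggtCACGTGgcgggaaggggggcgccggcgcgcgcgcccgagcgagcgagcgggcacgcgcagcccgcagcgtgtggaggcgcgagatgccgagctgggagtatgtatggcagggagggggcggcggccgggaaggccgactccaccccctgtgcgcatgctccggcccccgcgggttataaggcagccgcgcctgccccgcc
Slc30a5: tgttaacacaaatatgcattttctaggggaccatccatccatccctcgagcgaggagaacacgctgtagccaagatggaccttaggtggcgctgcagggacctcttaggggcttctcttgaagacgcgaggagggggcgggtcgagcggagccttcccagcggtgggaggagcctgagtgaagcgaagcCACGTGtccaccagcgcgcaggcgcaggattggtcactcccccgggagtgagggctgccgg
Slc22a15: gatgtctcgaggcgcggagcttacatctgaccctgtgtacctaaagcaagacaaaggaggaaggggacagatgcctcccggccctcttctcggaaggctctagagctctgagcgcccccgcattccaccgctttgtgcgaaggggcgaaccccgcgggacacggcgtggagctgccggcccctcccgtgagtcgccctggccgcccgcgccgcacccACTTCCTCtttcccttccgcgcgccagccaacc
Slc9a9: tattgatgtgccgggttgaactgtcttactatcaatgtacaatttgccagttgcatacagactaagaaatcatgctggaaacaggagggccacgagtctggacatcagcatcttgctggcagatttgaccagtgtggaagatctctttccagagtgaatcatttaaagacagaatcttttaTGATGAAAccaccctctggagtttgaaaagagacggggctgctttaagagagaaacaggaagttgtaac

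Reads shared between genes limit some of these values. An exon of 46 of the 181 genes overlaps an exon of another gene on the opposite strand, and the strand setting used for counting is not given in the sources used here, so reads of such pairs may not be told apart. They include Slc7a7 (with Oxa1l), Slc48a1 (Hdac7), Slc16a6 (Amz2 and Arsg) and Slc15a3 (Tmem132a), and, with predicted or clone-named genes, Slc16a9, Slc8a1, Slc7a2, Slc15a4, Slc25a37, Slc29a1 and Slc30a4. Among the 135 genes without such an overlap, 46 were higher and 20 lower, with a median log2 fold change of 0.11.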

How the data were processed

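RNA-seq was made from B220+ splenocytes of 2 MIZ-1WT and 2 MIZ-1ΔPOZ samples, after ribosomal RNA depletion and stranded paired-end library preparation. The authors aligned reads to GRCm38 with TopHat2 (version 2.1.0 in the submitters' processing notes) after trimming with Trimmomatic, and counted them per Ensembl gene with HTSeq. The deposited values are raw counts per gene, with no normalization. The strand setting and the annotation release are not given in the sources used here. Rows that name no gene entered neither library sizes nor tests: 21.1% to 27.2% of the table's total fell in no feature, 0.281% to 0.302% were ambiguous and 42.8% to 44.1% were not uniquely aligned. Library totals on genes were 43026814 to 46387209.

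Of 41214 gene identifiers, 40340 were matched to a symbol in GENCODE M21. The 14554 genes that reached 10 counts in 2 or more libraries were analysed with edgeR 4.0.16 (R 4.3.3, limma 3.58.1): TMM normalization (factors 0.977 to 1.03), quasi-likelihood test of genotype over all 4 libraries, and p-values adjusted by Benjamini-Hochberg across the 14554 genes, with a threshold of 0.05. CPM are counts scaled to the TMM-adjusted library size. The common dispersion was 0.00848. The fit and DESeq2 1.42.0 were tested on simulated counts first. Alternatives were DESeq2 size factors, library totals alone, the DESeq2 Wald test, no count filter, a mean of at least 50 counts, a replicate block, each library left out, and, chosen after seeing the data, leaving out genes with an opposite-strand exon overlap.

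Substrate classes followed SLC family numbers with overrides for single genes, and 3 symbols of proteins that are not transporters were set apart after the values were seen. The genes and lists were chosen with earlier results of these data known. Named genes are, per class, the member with the largest mean CPM, up to 3 largest called rises and 3 largest called falls without overlap between genotypes, all members of classes under 5, and the members of the lymphocyte, endolysosomal and ATF4 lists. Genes outside the Slc symbols and marker genes are named only where a result touches them. Promoter sequences are from RefSeq. Some single genes are not reported here.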

Additional observations from a re-analysis of the deposited data

How the results depend on the processing

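With DESeq2 size factors, the DESeq2 Wald test, no count filter, a mean of at least 50 counts, library totals alone and the genes with an opposite-strand overlap left out, the counts of transporters called higher (46 to 69, against 61) and lower (20 to 29, against 27) stayed within 1.5 times, and the median log2 fold change stayed above 0 (0.07 to 0.14). Library totals alone moved the split of all calls from 52.8% higher to 63.9% higher, and that of the transporters from 69.3% to 76.7%. Leaving out a library gave 32 to 61 transporters higher, 13 to 25 lower and a median of 0.06 to 0.11. Fewer libraries entered those fits, in which the lone library of a genotype is assumed to vary like the other group. The same-numbered libraries share only a number: the correlation of their deviations from the genotype means was -0.0688. With a replicate block, 53 were higher and 22 lower (median 0.08), and 73 of the 88 calls held. Among the 78 named genes, signs changed for 6, none of which was called. With library totals alone, Slc7a6 was at 0.0035 and Slc35e1 at 0.0307. With a library left out, Slc7a6 ranged from -0.1228 to 0.0327, Slc38a7 from -0.0130 to 0.0843, Slc35e1 from -0.0599 to 0.0082, Slc35a1 from -0.0193 to 0.2326, Slc9a3r1 from -0.1767 to 0.0058 and Slc2a3 from -0.0256 to 0.1479. The cause was not tested. With 2 libraries a genotype, calls of small differences depend on single libraries: of 78 named genes, 19 and 20 lost their call without MIZ-1WT replicate 1 and 2, and 7 and 6 without MIZ-1ΔPOZ replicate 1 and 2.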
